A study of Mus musculus with 8 samples.

Results

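Mitochondrial ribosomal proteins are the nuclear-encoded proteins of the ribosome that works inside mitochondria. The genes were taken as those with a symbol that begins with Mrpl (large subunit) or Mrps (small subunit) followed by a number. The array held 76 of them, 48 large and 28 small, among 19505 genes with a symbol. A gene was kept as measured when the highest of its 8 log2 signals reached 4.86, the median of the whole table, which kept 74 of the 76 (46 large, 28 small) and 10871 genes in all. Mrpl22 was the kept gene with the lowest maximum, at 5.41, and the genes left out, Mrpl36 and Mrpl54, reached 4.32 and 4.27. Mrpl53 and Mrps6 were not analysed here. None of the 74 kept genes had both MCSF arrays under that limit, so none was kept through its arrays with RANKL alone.

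The mitochondrial ribosome descends from a bacterial one and translates the few membrane proteins that mitochondrial DNA encodes, all of them subunits of the respiratory chain and ATP synthase. Its proteins are made in the cytosol and imported. Many have a bacterial counterpart, and others are found only in mitochondria. Osteoclasts, the cells that resorb bone, are rich in mitochondria, and their formation from macrophage precursors under the cytokine RANKL is known to go with mitochondrial biogenesis.

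Bone marrow cells of C57BL6/J mice were profiled on Affymetrix arrays as 4 cultures, each on day 3 and day 6 of treatment. The cultures were PSS1-LMS and PSS1-WT (both factors at 50 ng/ml MCSF and 100 ng/ml RANKL, and a day later a retrovirus for mutant or wild-type PSS1, phosphatidylserine synthase 1), MCSF&RANKL (both factors) and MCSF (the macrophage growth factor alone, shared by all cultures). There was 1 array for each culture on each day and thus no replicate, which limits how precise any value here can be. Whether the cultures without PSS1 received an empty vector is not given in the labels, nor are the mutation of PSS1-LMS and the age of the mice. A difference on 1 day is a value without a test, and the tested quantity was the mean of both days, fitted with limma, in which the error is how far the differences moved between days and not the spread of repeated cultures.

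As far as Ptdss1 and cell type markers can show, the arrays matched their labels. Ptdss1 was high with either form of PSS1, so the labels PSS1-LMS and PSS1-WT were not checked against each other. Ptdss1, which encodes PSS1, had log2 signals between 17.50 and 18.91 on the 4 PSS1 arrays, against 9.56 and 10.36 on the MCSF&RANKL arrays. With RANKL, 10 of 10 osteoclast markers rose and 8 of 9 macrophage markers fell. The log2 of the summed osteoclast marker signals was between 21.57 and 21.75 on the 6 arrays with RANKL, against 8.89 and 12.84 on the MCSF arrays, and that of the macrophage markers was between 16.41 and 16.77 on the 6 arrays with RANKL, against 18.38 and 19.99 on the MCSF arrays. For neutrophil markers it was between 7.43 and 7.75 on day 6, against 14.11 to 14.68 on day 3. All 4 B cell markers and all 5 stromal and osteoblast markers on the array were within background on all 8 arrays, as were 4 of 5 T and NK cell markers and 1 of 2 erythroid markers. Within background means at or below the brightest of the 23 background probe sets of the same array, which reached between 5.54 and 7.13.

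The first comparison asked how RANKL changed these genes in cells kept with MCSF. Most mitochondrial ribosomal protein genes rose. By limma, with Benjamini-Hochberg adjustment over 10871 genes and a threshold of 0.05, 47 of the 74 measured members rose and 0 fell, where 14.1% of all measured genes rose and 12.4% fell; 59 members had an unadjusted p under 0.05 (37.4% of all genes). The median difference of the members was 1.34 log2 units (MCSF&RANKL minus MCSF), against 0.03 over all measured genes, and the difference was above 0 for 71 members (51.4% of all genes). The median was 1.18 on day 3 and 1.44 on day 6, and 69 members were higher on both days (36.8% of all genes), 1 was lower on both (33.2%) and the other 4 changed sign between days. All 6 arrays with RANKL lay above both MCSF arrays for 57 of the 74 members (22.2% of all genes) and below both for 1, Mrpl33 (20.8%). In bulk samples fewer cells of a type and less RNA per cell cannot be told apart, and osteoclast and macrophage markers moved with the same contrast; their part in the result was not tested. The count depended on single arrays: it was 10 without the MCSF&RANKL array of day 3, 10 without that of day 6, and between 36 and 58 without any other single array. The median difference moved less, to 1.30 and 1.35 without the MCSF&RANKL array of day 3 and of day 6 and between 1.16 and 1.51 without any other. With every signal under 7.13, the brightest background probe set of any array, raised to it, the count was 22 and the median 1.10. Of the 49 members above background on all 8 arrays 31 rose, where 14.0% of the 5830 genes above background on all 8 arrays did.

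**Figure D1:**
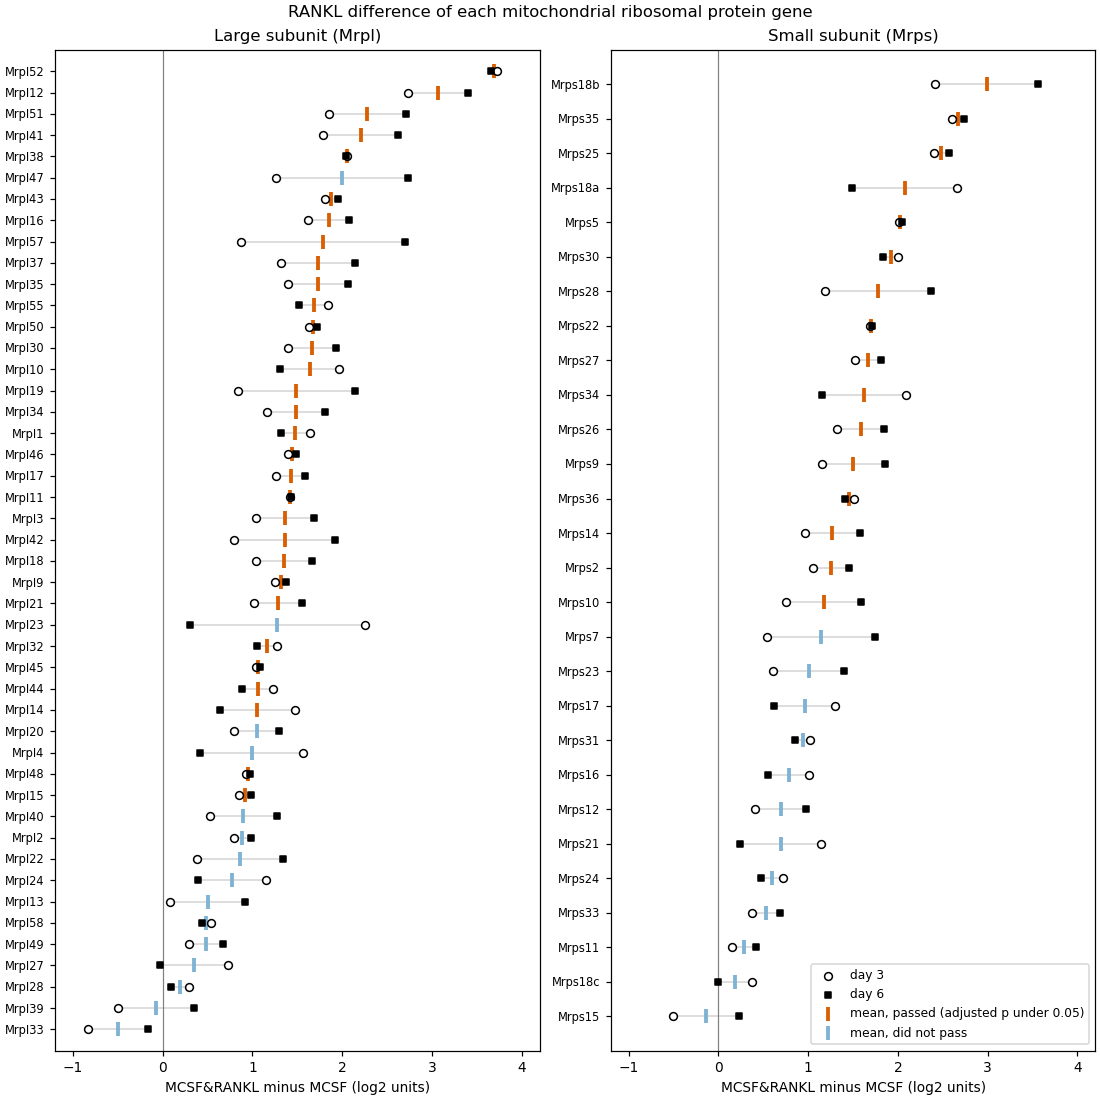
Difference between the MCSF&RANKL and MCSF arrays, in log2 units, for each of the 46 large subunit genes (left) and 28 small subunit genes (right), on day 3 (open circles) and day 6 (filled squares), with the mean of both days as a bar that is orange where the gene passed (adjusted p under 0.05) and blue where it did not. Nearly all genes lie right of 0 on both days, with Mrpl52 at 3.69 and Mrpl33 at -0.50 as the ends of the range.

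Genes of both subunits rose, and the counts below stand beside 14.1% of all measured genes that rose and 12.4% that fell. In the large subunit 31 of 46 members rose and 0 fell, with a median difference of 1.36 and a range of -0.50 to 3.69. In the small subunit 16 of 28 rose and 0 fell, with a median of 1.26 and a range of -0.14 to 2.99. The 28 were taken by symbol and include Mrps18a, a large subunit protein, and Mrps36, which is no longer counted as a ribosomal protein; without them 14 of 26 rose, with a median of 1.21. Members without a bacterial counterpart had medians of 1.44 in the large subunit (13 of 17 rose) and 1.62 in the small subunit (8 of 11 rose), and members with one had medians of 1.32 (18 of 29 rose) and 1.14 (8 of 17 rose). Without Mrps18a and Mrps36 the small subunit medians were 1.64 without a counterpart (7 of 10 rose) and 1.05 with one (7 of 16 rose). These classes are background knowledge from mammalian ribosome structures, and differences between them, or between the subunits, were not tested.

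The mean difference was 1 log2 unit or more for 50 of 74 members (16.9% of all genes). Centred on each gene's own mean, the members' median was 0.57 and 0.27 on the MCSF&RANKL arrays of days 3 and 6, between 0.07 and 0.29 on the 4 PSS1 arrays, and -0.58 and -1.12 on the MCSF arrays. All 6 medians with RANKL were above both without it, and that of the MCSF array of day 6 was the lowest. The same medians over all measured genes lay between -0.04 and 0.04 on every array.

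**Figure D2:**
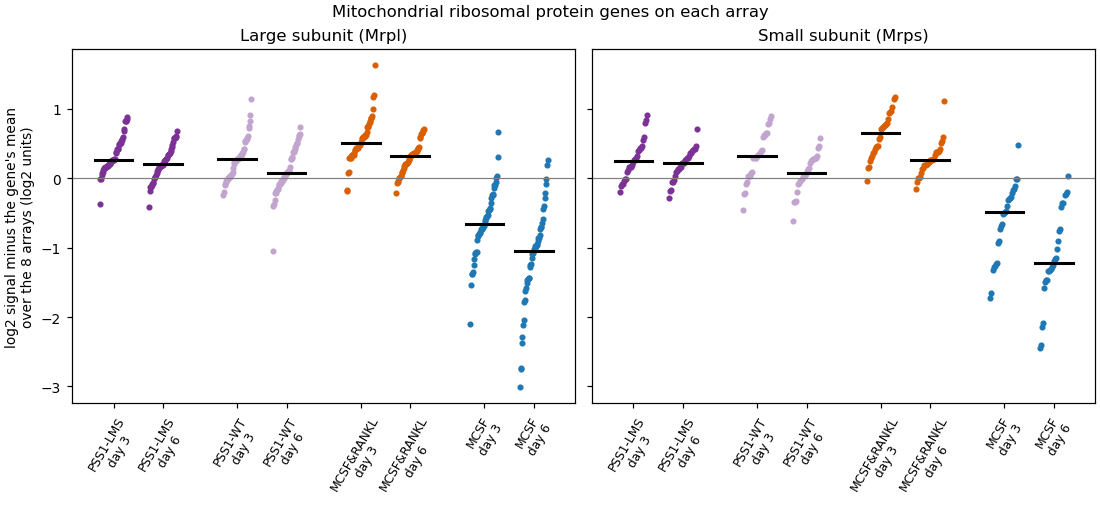
Log2 signal of each measured member minus its mean over the 8 arrays, in log2 units, by culture and day, for the large subunit (left) and small subunit (right); each point is 1 gene, and black lines are medians. The medians of both subunits are above 0 on the 6 arrays with RANKL and lie at -0.66 and -1.04 (large) and -0.49 and -1.22 (small) on the MCSF arrays of days 3 and 6.

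In the large subunit the rise was largest for Mrpl52, a protein found only in mitochondrial ribosomes. Its log2 signal was 11.81 and 10.83 on the MCSF&RANKL arrays of days 3 and 6, against 8.08 and 7.17 on the MCSF arrays, and it lay between 10.45 and 11.32 on the PSS1 arrays. All arrays with RANKL were far above both without it. The difference was 3.69 ± 0.29 (SE), or 12.9-fold (adjusted p = 9.38e-05, limma), and nearly the same on both days.

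Mrpl12 is the counterpart of the bacterial stalk protein that recruits translation factors, and in human cells it has also been reported to bind the mitochondrial RNA polymerase. It had 10.63 and 10.09 on the MCSF&RANKL arrays, against 7.89 and 6.68 on the MCSF arrays. The MCSF signal of day 6 was within background, so the 3.07 ± 0.32 difference (adjusted p = 3.58e-04, limma) is at least 7.21-fold. The PSS1 arrays, between 9.82 and 10.26, did not overlap the MCSF arrays.

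Mrpl51, Mrpl41 and Mrpl38 are further large subunit proteins without a bacterial counterpart. Mrpl51 had 13.53 and 13.12 on the MCSF&RANKL arrays, against 11.69 and 10.41 on the MCSF arrays, a 4.86-fold difference (2.28 ± 0.39, adjusted p = 0.00417, limma). Mrpl41 had 8.33 and 7.92, against 6.54 and 5.29 on the MCSF arrays (2.21 ± 0.39, at least 2.44-fold, adjusted p = 0.00485). Mrpl38 had 9.08 and 9.01, against 7.02 and 6.96 (2.05 ± 0.33, at least 3.91-fold, adjusted p = 0.00302). For all 3 the groups did not overlap. Without the MCSF&RANKL array of day 3 the difference was 2.27 for Mrpl51 (adjusted p = 0.0566) and 2.18 for Mrpl41 (adjusted p = 0.0635). Without that of day 6 it was 2.30 for Mrpl51 (adjusted p = 0.0565), 2.24 for Mrpl41 (adjusted p = 0.0617) and 1.82 for Mrpl38 (adjusted p = 0.0581). With signals raised to 7.13, a higher floor than the per-array one behind the folds, Mrpl41 differed by 0.99 (adjusted p = 0.0590) and Mrpl51 by 2.28 (adjusted p = 0.0695).

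In the small subunit Mrps18b rose most. Mrps18a, Mrps18b and Mrps18c are 3 mammalian copies of a single bacterial protein. In mammalian mitochondrial ribosomes Mrps18c takes the bacterial place in the small subunit, Mrps18b sits elsewhere in the small subunit, and Mrps18a, despite its name, is part of the large subunit. Mrps18b had 10.57 and 10.55 on the MCSF&RANKL arrays, against 8.16 and 6.99 on the MCSF arrays (2.99 ± 0.35, at least 7.55-fold, adjusted p = 6.60e-04, limma). Mrps18a had 10.85 and 10.07, against 8.19 and 8.58 on the MCSF arrays (2.08 ± 0.35, 4.22-fold, adjusted p = 0.00373). Mrps18c had 9.32 and 9.18, against 8.94 and 9.19 on the MCSF arrays, and did not pass (0.18 ± 0.28, adjusted p = 0.687). The 2 copies that rose were separated from the MCSF arrays on all 6 arrays with RANKL, and the signals of Mrps18c overlapped. Differences between the copies were not tested. Without the MCSF&RANKL array of day 3, Mrps18a differed by 1.71 (adjusted p = 0.0641), and with signals raised to 7.13 by 2.08 (adjusted p = 0.0513).

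**Figure D3:**
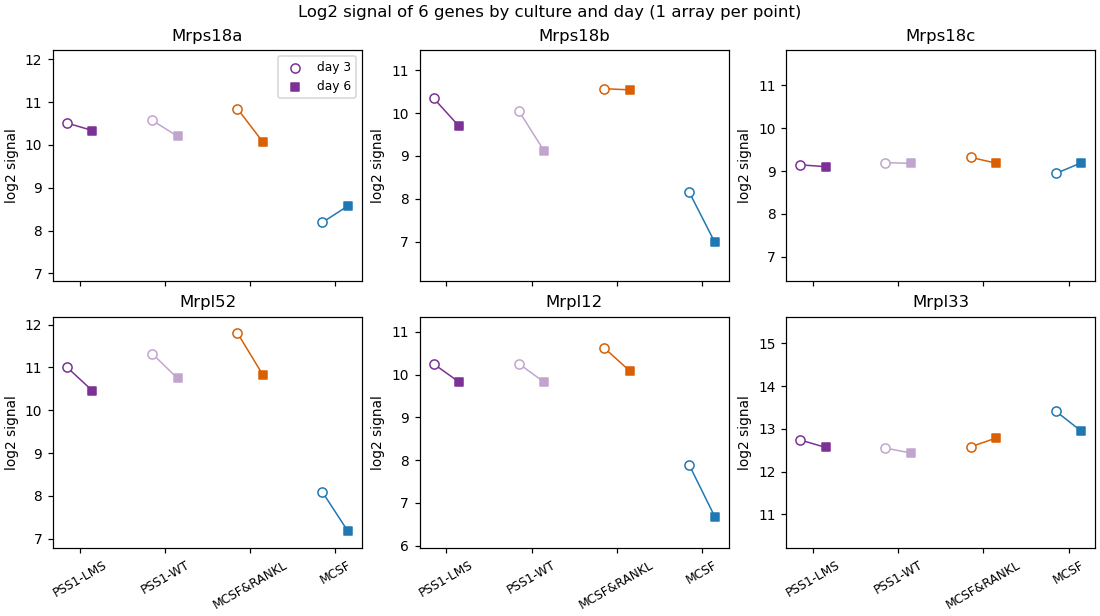
Log2 signal of Mrps18a, Mrps18b, Mrps18c, Mrpl52, Mrpl12 and Mrpl33 in the 4 cultures on day 3 (open circles) and day 6 (filled squares), 1 array per point, on axes of equal span. Mrps18a, Mrps18b, Mrpl52 and Mrpl12 lie lower on both MCSF arrays than on every array with RANKL, Mrps18c overlaps between the groups, and Mrpl33 is highest on the MCSF arrays.

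Mrps35 and Mrps25, both without a bacterial counterpart, and Mrps5, which has one, had the largest rises among the other Mrps genes. Mrps35 had 7.81 and 7.19 on the MCSF&RANKL arrays, against 5.20 and 4.46 on the MCSF arrays, both within background. Its difference was 2.67 ± 0.30 (adjusted p = 5.71e-04, limma). Set against the background of the MCSF arrays it was at least 1.73-fold as the mean of both days. That background was 6.29 on day 3 and 7.13 on day 6, so on day 6 the MCSF&RANKL signal of 7.19 was barely above it. With signals raised to 7.13 on every array it differed by 0.37 (adjusted p = 0.383). Mrps25 had 10.92 and 10.17, against 8.52 and 7.60 on the MCSF arrays (2.49 ± 0.32, 5.6-fold, adjusted p = 9.71e-04). Mrps5 had 9.97 and 9.72, against 7.96 and 7.68 (2.03 ± 0.31, 4.07-fold, adjusted p = 0.00237). The differences of Mrps25 and Mrps5 were nearly equal on both days. Mrps36, which is now known as a subunit of the oxoglutarate dehydrogenase complex of the TCA cycle and not as a ribosomal protein, had 10.73 and 9.83, against 9.22 and 8.42 on the MCSF arrays. It rose with the others (1.46 ± 0.37, 2.75-fold, adjusted p = 0.023), but not without the MCSF&RANKL array of day 3 (1.13, adjusted p = 0.221) or of day 6 (1.79, adjusted p = 0.0775), nor with signals raised to 7.13 (1.46, adjusted p = 0.128).

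None of the 10 members with the lowest mean differences passed. Mrpl33, a small large subunit protein with a bacterial counterpart, was lower with RANKL on both days. It had 12.58 and 12.78 on the MCSF&RANKL arrays and between 12.43 and 12.74 on the PSS1 arrays, against 13.41 and 12.94 on the MCSF arrays (-0.50 ± 0.30, adjusted p = 0.275, limma). Mrps15 had 6.59 and 6.63, against 7.10 and 6.40 on the MCSF arrays (-0.14), and Mrpl39 had 6.50 and 6.63, against 6.99 and 6.28 (-0.07). For both the MCSF signal of day 6 was within background, and the sign turned between days, with -0.51 on day 3 and 0.23 on day 6 for Mrps15 and -0.50 on day 3 and 0.35 on day 6 for Mrpl39. The mean difference was 0.19 for Mrpl28, 0.29 for Mrps11, 0.35 for Mrpl27 and 0.50 for Mrpl13, all with bacterial counterparts. The MCSF signal of Mrpl28 on day 6 (6.86) was also within background. Mrpl49 had 0.49, and Mrpl58, a peptidyl-tRNA hydrolase that frees stalled ribosomes, had 0.49; adjusted p-values of the 10 lay between 0.265 and 0.899. Mrpl13 passed without the MCSF array of day 3 (0.84, adjusted p = 0.0455).

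The genes that the level filter left out gave no comparison. Mrpl36 had 4.25 and 4.15 on the MCSF&RANKL arrays and 3.96 and 3.21 on the MCSF arrays, and Mrpl54 had 4.15 and 4.25 on the MCSF&RANKL arrays and 3.20 and 4.10 on the MCSF arrays. Both were within background on all 8 arrays, as was the measured member Mrpl22. Of the 74 measured members 25 were within background on at least 1 array, in each case including an MCSF array, and 6 of them also on an array with RANKL. For 7 both MCSF arrays were within background. Folds of such genes are lower bounds or are not given.

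Promoter sequences were set beside these values because most of the members rose with RANKL. RefSeq promoter windows (GRCm38.p6, 250 bases before to 50 after a gene's start) were matched for 66 of the 74 members, with 72 windows. Cores of sites for factors known to act on genes of mitochondrial proteins were counted on both strands. The ETS core CCGGAAG, bound by GABP, was in 34.7% of the members' windows, 17.6% of windows of measured genes and 8.86% of all 32851 windows. The NRF1 core GCATGCG was in 11.1%, 6.22% and 3.58% of them, the YY1 core AAGATGG in 16.7%, 7.31% and 6.34%, and the E-box CACGTG in 8.33%, 9.70% and 7.15%. Between windows of members that rose with RANKL (44 windows) and of members that did not pass (28 windows), the ETS core was in 34.1% and 35.7%, the NRF1 core in 11.4% and 10.7%, the YY1 core in 15.9% and 17.9%, and the E-box in 2.27% (1 window) and 17.9% (5 windows). These shares were not tested. A match is a description of the letters and no measure of binding. The 150 bases before the start are shown for the 2 members with the largest and the 2 with the smallest RANKL difference, with matches to any of the 4 cores in capitals:
Mrpl52, chr14:54426759-54426908, + strand: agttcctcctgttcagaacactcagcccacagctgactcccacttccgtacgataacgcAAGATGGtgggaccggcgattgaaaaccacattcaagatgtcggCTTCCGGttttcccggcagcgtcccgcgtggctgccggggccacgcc
Mrpl12, chr11:120484487-120484636, + strand: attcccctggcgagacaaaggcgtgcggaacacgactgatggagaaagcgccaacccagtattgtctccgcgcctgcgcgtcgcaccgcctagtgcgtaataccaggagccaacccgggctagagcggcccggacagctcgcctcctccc
Mrpl33, chr5:31613801-31613950, + strand: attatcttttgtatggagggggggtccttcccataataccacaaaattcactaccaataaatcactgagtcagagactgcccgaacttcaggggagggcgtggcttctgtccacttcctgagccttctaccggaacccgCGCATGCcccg
Mrps15, chr4:126046778-126046927, + strand: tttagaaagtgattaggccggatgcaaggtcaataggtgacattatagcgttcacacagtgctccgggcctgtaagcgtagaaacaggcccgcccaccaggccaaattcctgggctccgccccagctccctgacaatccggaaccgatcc
The stretch of Mrpl52 held a YY1 core and, on the other strand, an ETS core. That of Mrpl33, which did not rise, held an NRF1 core on the other strand 11 bases before the start, and those of Mrpl12 and Mrps15 held none of the 4.

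The rest of the mitochondrial translation system was described by lists of genes, each read against the 14.1% of all genes that rose and the 12.4% that fell with RANKL. Mitochondrial ribosomal proteins with other symbols had 4 measured genes. Dap3 (1.30 ± 0.39, adjusted p = 0.0422, limma), a GTP-binding protein of the small subunit, and Ptcd3 (2.05 ± 0.38, adjusted p = 0.00603), an RNA-binding protein of the small subunit, rose. Chchd1 (1.17, adjusted p = 0.0534) and Gadd45gip1 (0.97, adjusted p = 0.082) did not pass. The median of the 4 was 1.23, near that of the members.

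Of 12 translation factors 6 rose and 0 fell (median 1.07). Gfm1, the elongation factor that moves the ribosome along the mRNA, had 12.44 and 12.41 on the MCSF&RANKL arrays, against 9.35 and 9.07 on the MCSF arrays (3.22 ± 0.28, 9.29-fold). Tufm, the factor that delivers charged tRNAs, differed by 2.59 ± 0.35 (at least 4.93-fold), and the release factor gene Mtrf1 (0.52) and Mtfmt (-0.11), which formylates the initiator tRNA, did not pass. Of 17 mitochondrial aminoacyl-tRNA synthetases and amidotransferase subunits 6 rose and 0 fell (median 0.91), with Tars2 (2.03) and Iars2 (1.92), which charge the threonine and isoleucine tRNAs, at the top, and Vars2 (0.10) and the amidotransferase gene Gatc (-0.72), which did not pass, at the bottom.

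Of 25 measured assembly factors of the mitochondrial ribosome 5 rose and 1 fell, and the median was 0.57. The GTPase gene Noa1 (2.77 ± 0.36, at least 4.14-fold) and Fastkd2 (2.09 ± 0.39, at least 3.6-fold), which binds mitochondrial RNA, were at the top. Rbfa, a small subunit assembly factor, fell; it had 8.64 and 8.86 on the MCSF&RANKL arrays, against 9.47 and 10.07 on the MCSF arrays (-1.02 ± 0.32, adjusted p = 0.049, limma). The pseudouridine synthase gene Trub2 (-0.53) did not pass.

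In mitochondrial transcription and RNA processing 8 of 14 genes rose and 0 fell (median 1.16). Hsd17b10, a dehydrogenase that is also a subunit of mitochondrial RNase P, had 14.95 and 14.42 on the MCSF&RANKL arrays, against 11.14 and 10.80 on the MCSF arrays (3.72 ± 0.30, 13.2-fold), and the RNA helicase gene Supv3l1 differed by 2.61 ± 0.41 (at least 4.04-fold). Slirp (0.16), which partners with Lrpprc to stabilise mitochondrial mRNAs, and the termination factor gene Mterf1a (-0.34) did not pass. Of 7 measured regulators of mitochondrial biogenesis only Ppargc1b, a transcriptional coactivator, rose (6.03 ± 0.35, at least 36.7-fold, adjusted p = 2.68e-05, limma). It had 12.24 and 11.58 on the MCSF&RANKL arrays, against 5.77 and 6.00 on the MCSF arrays, where both were within background. Myc (2.52 ± 0.97, adjusted p = 0.0979), Nrf1 (-0.56) and Yy1 (-0.68) did not pass. The mean of both days leaves out that Myc moved unlike between cultures. Its day 6 minus day 3 difference in MCSF, minus the mean of that in the cultures with RANKL, was -4.12. The 15 mitochondrially encoded genes, which give the mRNAs and rRNAs this ribosome uses, were not analysed here.

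**Figure D4:**
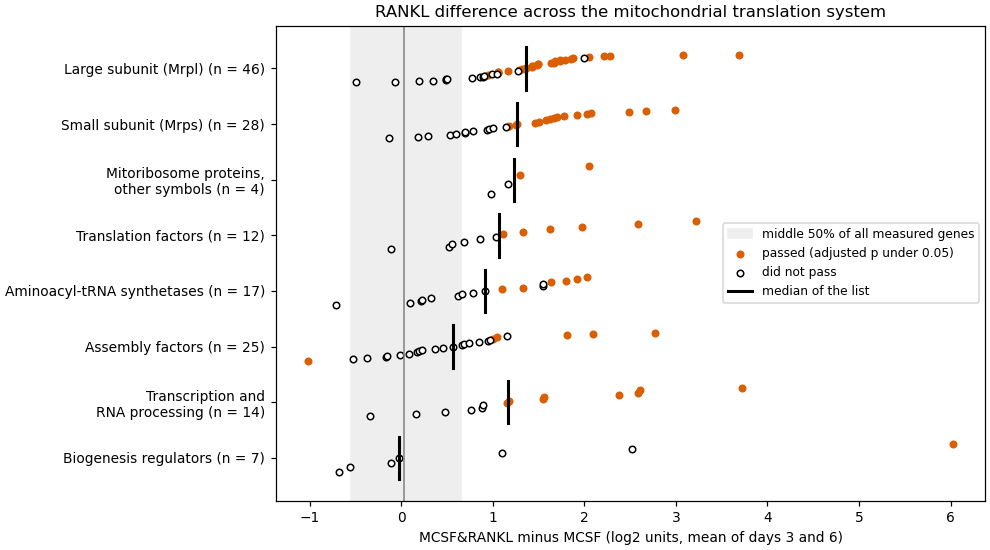
Difference between the MCSF&RANKL and MCSF arrays, in log2 units and averaged over both days, for the measured genes of each list (1 point per gene, orange where adjusted p was under 0.05 and open where not), with the median of each list as a black bar and the middle 50% of all measured genes in grey. The medians of the large subunit (1.36) and small subunit (1.26) lie right of the grey band, as do those of 4 other lists, and the medians of the assembly factors (0.57) and biogenesis regulators (-0.03) lie within it.

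The next comparison asked how the genes changed with time. By limma 0 of 74 members passed for day 6 minus day 3 averaged over the 4 cultures (0.285% of all genes passed), and 7 had an unadjusted p under 0.05, where 7.94% of all genes did. The members' median was -0.26, against -0.03 over all measured genes. Day 6 was lower than day 3 in all 4 cultures for 26 members (10.5% of all genes) and higher in all 4 for 0 (7.77%). Summed neutrophil markers were lower on day 6 in every culture; their part in the result was not tested.

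By culture, the median day difference of the members was -0.08 in PSS1-LMS, -0.12 in PSS1-WT, -0.25 in MCSF&RANKL and -0.62 in MCSF, where the median of all genes was -0.04, -0.03, -0.04 and 0.00. In the MCSF culture 58 of 74 members were lower on day 6 (49.9% of all genes) and 16 higher (50.1%), and 14 were lower by 1 log2 unit or more (12.9%), and in the MCSF&RANKL culture 63 were lower (53.8%). The lowest mean day differences were those of Mrpl19 (-0.999, adjusted p = 0.381, limma) and Mrpl47 (-0.85), both with bacterial counterparts, Mrpl52 (-0.76), Mrps28 (-0.75) and Mrpl57 (-0.71). Mrpl19 had 11.12 on day 6, against 11.69 on day 3, in the MCSF&RANKL culture, and 8.98 on day 6, against 10.86 on day 3, in the MCSF culture. The highest were Mrps24 (0.25), Mrpl50 (0.24), Mrpl17 (0.16), Mrpl24 (0.08) and Mrpl45 (0.08), the protein that holds the ribosome at the inner membrane. None of these 10 passed. The MCSF signals of Mrps28 on both days and of Mrpl47 and Mrps24 on day 6 were within background. With the 6 arrays with RANKL alone, Mrpl23 passed (-1.21, adjusted p = 0.0106).

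A test of whether the day difference of the MCSF culture differed from the mean of the 3 cultures with RANKL was added after the data were seen. By limma 6 of 74 members passed it (22.3% of all genes), 4 with a lower day difference in the MCSF culture (9.49%) and 2 with a higher one (12.8%), and 16 had an unadjusted p under 0.05 (35.3%). These shares were below those of all genes.

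The last comparisons set the retroviral PSS1 cultures against MCSF&RANKL and against each other. In limma, 0 of 74 members passed with PSS1-LMS (0.156% of all genes were higher and 0.0184% lower), 0 with PSS1-WT (0.0092% of all genes passed, which is Ptdss1 alone), and 0 between PSS1-LMS and PSS1-WT (0.0%). At an unadjusted p under 0.05 there were 4 members for PSS1-LMS (6.57% of all genes), 6 for PSS1-WT (6.86%) and 1 for PSS1-LMS against PSS1-WT (7.11%). The median difference from MCSF&RANKL was -0.14 in PSS1-LMS and -0.22 in PSS1-WT, against -0.02 and -0.06 over all measured genes. The difference was below 0 for 55 members in PSS1-LMS (53.5% of all genes) and for 64 in PSS1-WT (58.7%). It was above 0 for 19 in PSS1-LMS (46.5%) and for 10 in PSS1-WT (41.3%). For PSS1-LMS 36 members were lower on both days (27.6% of all genes) and 6 higher on both (23.2%), and for PSS1-WT 39 were lower (32.2%) and 2 higher (18.8%). Both PSS1 cultures are set against the same MCSF&RANKL arrays. The MCSF&RANKL array of day 3 had the highest member median of the 8 arrays; without it the median was -0.12 for PSS1-LMS and -0.13 for PSS1-WT.

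The ends of the range for PSS1-LMS were Mrpl28, with 6.22 and 6.18 on the PSS1-LMS arrays, against 6.93 and 6.95 on the MCSF&RANKL arrays (-0.74 ± 0.24, adjusted p = 0.461, limma; its PSS1-LMS signal of day 6 was within background), then Mrps21 (-0.62) and Mrpl52 (-0.59), and on the other side Mrpl39 (0.35), Mrpl48 (0.25) and Mrpl44 (0.23). For PSS1-WT they were Mrps18b, with 10.06 and 9.11 on the PSS1-WT arrays, against 10.57 and 10.55 on the MCSF&RANKL arrays (-0.98 ± 0.27, adjusted p = 0.526), then Mrpl16 (-0.74) and Mrps27 (-0.69), and on the other side Mrpl2 (0.22), Mrpl37 (0.11) and Mrpl43 (0.10). Without the MCSF&RANKL array of day 3, Mrps18b passed for PSS1-WT (-1.36, adjusted p = 0.0431). No other member passed for a PSS1 comparison under any alternative.

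Between the mutant and the wild type the members' median difference was 0.08 (PSS1-LMS minus PSS1-WT), against 0.04 over all genes. It was -0.01 on day 3 and 0.16 on day 6. In the fit without the PSS1-LMS array of day 6 it was -0.06, which rests on the day 3 array alone for the mutant. Macrophage markers differed by a median of 0.65 between the same cultures (7 of 9 were higher with PSS1-LMS, 6 of 9 had an unadjusted p under 0.05, and 0 passed by limma), and their part in the result was not tested. In all, 27 members were higher on both days (33.1% of all genes) and 17 lower (22.9%). The ends were Mrpl32 (0.55 ± 0.24, adjusted p = 0.679, limma), Mrpl23 (0.52) and Mrps14 (0.48), higher with PSS1-LMS, and Mrps12 (-0.41), Mrpl37 (-0.38) and Mrps24 (-0.35), lower. Mrpl32 had 8.87 and 8.63 on the PSS1-LMS arrays, against 8.33 and 8.06 on the PSS1-WT arrays.

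**Figure D5:**
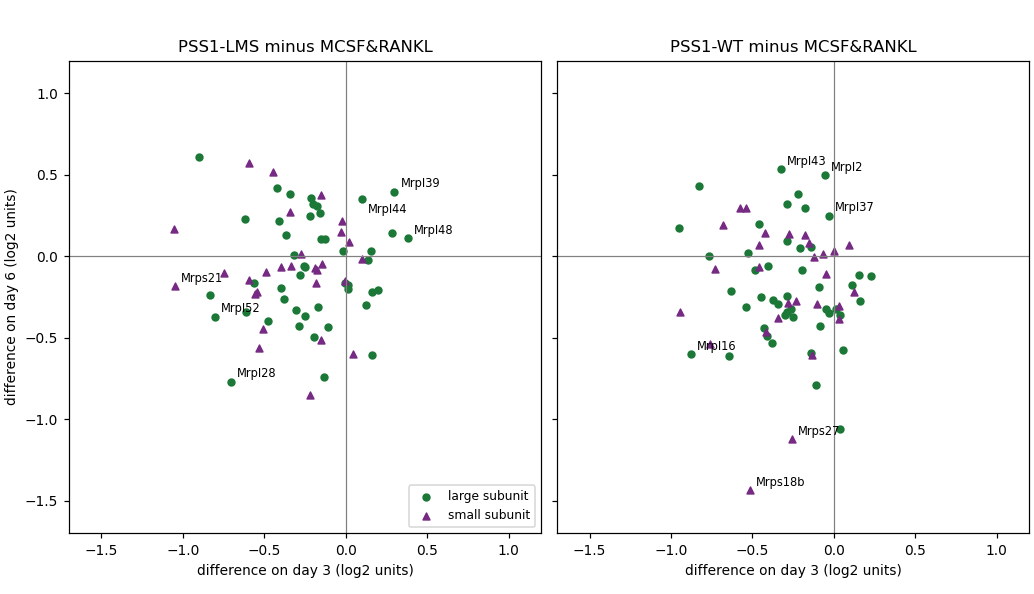
Difference from the MCSF&RANKL array of the same day for PSS1-LMS (left) and PSS1-WT (right), in log2 units, on day 3 (x axis) and day 6 (y axis); each point is 1 measured member, circles for the large and triangles for the small subunit, with the 3 members at each end of the mean difference named. The corner below 0 on both axes holds 36 members for PSS1-LMS and 39 for PSS1-WT.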

How the data were processed

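The authors deposited 1 table of log2 signals for 28846 features on 8 Affymetrix arrays. That the unit is log2 was read from the values (1.25 to 19.93); the authors' probe summary and normalization are not given in the sources used here. Per the labels' protocols, the labelled cDNA came from 500 ng total RNA. Values were used as deposited. A single symbol was attached to 19572 features through the platform annotation, giving 19505 genes, and the brightest of several features stood for a gene.

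Differences came from limma 3.58.1 (R 4.3.3), in which day was a term beside culture, with all 8 arrays for RANKL and day (3 residual degrees of freedom) and the 6 arrays with RANKL for PSS1 (2 residual degrees of freedom). The added day-by-RANKL term used 8 arrays (2 residual degrees of freedom). Both MCSF arrays are fitted exactly there, so the residuals come only from the cultures with RANKL. P-values were adjusted over 10871 genes. Errors are standard errors. The fit was also run on simulated data with the same spread on every array. Such data cannot show how it behaves where a culture moved more between days than the others.

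Genes named are the 10 at each end of the RANKL difference, the 5 at each end for day and the 3 at each end for each PSS1 comparison, the 3 Mrps18 copies, Mrps36, Mrpl12, genes left out by the filter, and the 2 at each end of each other list; the 6 genes of the day-by-RANKL term were named after their values were seen. Members and lists were chosen with earlier results of these data known. Alternatives were other filters, scalings, variance models and sets of arrays.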

Additional observations from a re-analysis of the deposited data

Results flagged for a closer look

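For 6 of 74 members the day difference of the MCSF culture differed from the mean day difference of the 3 cultures with RANKL by an interaction term in limma, chosen after the data were seen (22.3% of all genes passed this test, so the members' share was lower than the background). In Mrpl57 the difference between them was -1.94 log2 units (adjusted p = 0.00297): day 6 minus day 3 was -0.25 in PSS1-LMS, -0.08 in PSS1-WT, -0.33 in MCSF&RANKL and -2.16 in MCSF. In Mrpl47 it was -2.38 (adjusted p = 0.0042), with 5.50 on the MCSF array of day 6, within background, against 8.13 on that of day 3. Mrps7 (-1.18, adjusted p = 0.0441) and Mrpl19 (-1.17, adjusted p = 0.0466) also had lower day differences in the MCSF culture (-1.03 and -1.88) than in each culture with RANKL. Mrpl23 (2.29, adjusted p = 0.00317) and Mrpl4 (1.22, adjusted p = 0.0384) had higher ones (1.09 and 0.85) than each culture with RANKL; both MCSF signals of Mrpl4 were within background. Mrpl23, the counterpart of a bacterial protein at the exit of the nascent chain, had 8.63 on day 6, against 9.43 on day 3, in PSS1-LMS, 7.54 against 9.49 in PSS1-WT, 8.59 against 9.45 in MCSF&RANKL and 8.29 against 7.20 in MCSF, so its RANKL difference was 0.31 on day 6 and 2.25 on day 3. With signals raised to 7.13 on every array Mrpl57 and Mrps7 passed and Mrpl47, Mrpl19, Mrpl23 and Mrpl4 did not. Without the filter on low values Mrpl23, Mrpl47 and Mrpl57 passed and Mrps7, Mrpl19 and Mrpl4 did not. The MCSF side of each of these tests is 1 array on each day, and no spread of that culture enters the error.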

How the results depend on the processing

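With RANKL 47 members passed; 22 did with signals raised to 7.13, the brightest background probe set of any array (21 of them among the 47), 30 with only the arrays of the groups compared (29 among the 47), and 10 to 58 when 1 array was left out. Between 46 and 52 passed under the other filters, scalings, cluster rule, variance trend and the contrast of all 6 arrays with RANKL, which was added after the data were seen, and no member fell under any of these. For day, 1 passed with only the 6 arrays with RANKL, Mrpl23 (-1.21, adjusted p = 0.0106), and 0 to 1 when 1 array was left out. The 1 was again Mrpl23, on leaving out either MCSF array. That is the same fit and no separate check, because a lone MCSF array says nothing about day. For PSS1-WT 0 to 1 passed when 1 array was left out. The day-by-RANKL count of 6 was 3 without a filter, 2 with signals raised to 7.13, 10 after quantile normalization and 3 to 13 with 1 array left out. For RANKL, results by gene were counted only for the 10 members at each end of the difference and Mrps36. The other members are not in this count. Of these 357 gene results, 337 kept call and sign, 13 lost the call, 1 gained it and 6 changed sign without a call. With all 6 arrays with RANKL in the contrast these were Mrpl28 (-0.20) and Mrpl39 (0.061). With 1 array left out, the RANKL difference spanned -0.053 to 0.75 for Mrpl27, -0.45 to 0.31 for Mrpl39 and -0.62 to 0.34 for Mrps15. Other uncalled differences that changed sign on leaving out 1 array were those for day of Mrpl17 (-0.0022 to 0.32) and Mrpl24 (-0.10 to 0.20, and -0.10 with only the arrays with RANKL), for PSS1-WT of Mrpl37 (-0.11 to 0.33) and Mrpl43 (-0.24 to 0.44), for PSS1-LMS of Mrpl44 (-0.0025 to 0.45), and for PSS1-LMS against PSS1-WT of Mrpl23 (-0.042 to 1.08) and Mrps24 (-0.76 to 0.048). The cause was not tested. There were no replicates to pair, because each culture had 1 array on each day. Arrays were matched by day alone, through the day term of each fit. With 1 array left out, a culture with a single array is assumed to vary like the others.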
